A study of Mus musculus with 5 samples.

Results

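Gene expression of LPS-treated mouse macrophages was compared between 21 h and 7 h of exposure, on 2 of the 5 arrays of a time course. Bone marrow cells of C3H/ARC mice were differentiated in culture with human CSF-1, the growth factor of the macrophage lineage, and treated with LPS of Salmonella minnesota at 10 µg per ml. LPS, or endotoxin, is the lipid of the outer membrane of Gram-negative bacteria. Each time (0, 0.5, 2, 7 and 21 h) was measured on 1 dual-channel cDNA array, whose other channel held RNA of whole C57BL6/J embryos of day 17.5 as a common reference. With 1 array per time the difference has no replicate check and carries no p-value, and precision is limited by the number of arrays. Cells cultured without LPS for 21 h were not analysed here, so time in LPS and time in culture cannot be told apart.

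Values below are log2 ratios of macrophage over embryo RNA with the array median set to 0, and a difference is the ratio at 21 h minus that at 7 h, averaged over the probes of a gene. The deposited values are log ratios whose base is not stated. They were read as log10, and with base 2 every value would be 3.32 times smaller. The direction, macrophage over embryo, is likely but not stated: at 7 h and 21 h the median log2 ratio of 14 measured macrophage genes was 1.20 and 1.32, and that of 46 embryo genes was -1.51 and -1.41. A difference covered 8637 genes from 13782 probes. As a rule of size, genes that differed 2-fold or more were counted. On the 0.5 h and 2 h arrays, 2.87% and 4.36% of probes lay 10-fold or more above the array median, in runs of neighbouring probe numbers, whereas 0.498% and 0.448% did at 7 h and 21 h. The 0.5 h and 2 h values are therefore given as context only. Probes of genes named below may lie in such runs also where this is not said.

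Toll-like receptor 4 on macrophages recognises LPS and switches on NF-kappaB and, through interferon made by the same cells, the interferon-stimulated genes. Many early genes of this response encode cytokines and chemokines that recruit other cells, and others encode inhibitors that end the signal. Over the following hours macrophages are known to shift their metabolism and to express scavenger receptors, antioxidant enzymes and arginase.

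The 2 arrays were alike for most genes. Of 8637 genes, 157 (1.82%) reached a 2-fold higher ratio at 21 h than at 7 h, and 97 (1.12%) a 2-fold lower one. The median difference was 0.02 (SD over genes 0.42), with 95% of genes between -0.79 and 0.88. Most higher genes came from single probes, namely 144 of 5622 genes with 1 probe (2.56%) and 13 of 3015 genes with several (0.431%). For lower genes the numbers were 76 (1.35%) and 21 (0.697%). Pooled over genes with several probes, the SD within a gene was 0.40, which is technical and includes differences between clones. A value given below with an SD uses the spread over that gene's probes, and a gene first described without one had 1 probe or, where its difference was short of 2-fold, is given as the mean of its probes. Without centring the arrays, which moved the median of all genes to 0.10, 193 genes were higher and 73 lower, so that 72.6% of the genes beyond 2-fold were higher in place of 61.8%.

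**Figure D1:**
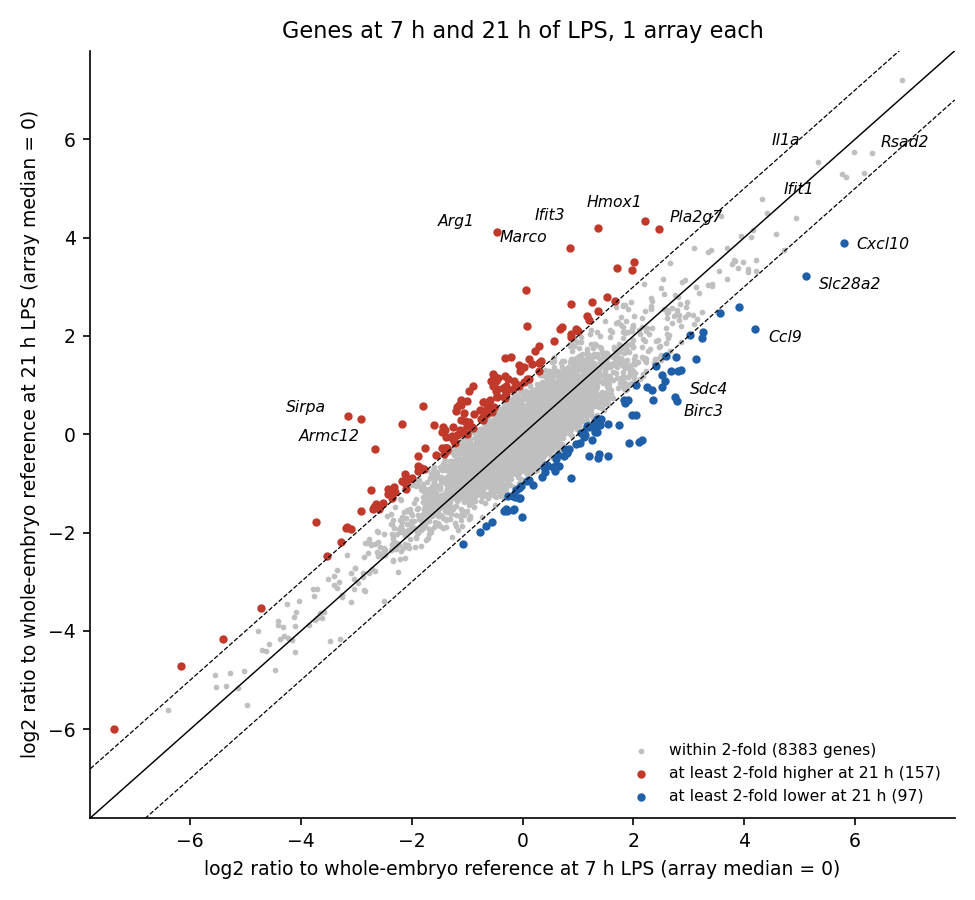
Log2 ratio to the whole-embryo reference of each of 8637 genes at 7 h (horizontal) and 21 h (vertical), 1 array each, array median 0; the solid line is equality and the dashed lines are 2-fold. Red marks the 157 genes at least 2-fold higher at 21 h and blue the 97 at least 2-fold lower; Arg1 and Marco lie far above the lines, Cxcl10 and Ccl9 below them, while Il1a, Ifit1 and Rsad2 are high on both arrays.

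Inhibitors and survival genes of the NF-kappaB pathway were lower at 21 h. Of 10 measured NF-kappaB feedback and target genes, 8 (80.0%) were lower, against 47.1% of all genes. At least 2-fold lower were 3, against 1.12% of all genes. The median log2 ratio of the list was 0.39 at 0 h, 2.28 at 7 h and 1.11 at 21 h, with a median difference of -0.81. Birc3, an inhibitor of cell death in TNF receptor complexes, had log2 ratios of 0.03, 0.63, 0.82, 2.76 and 0.75 in order of time, a single high value at 7 h. Its difference was -2.0, 4.01-fold lower. The TNF receptor genes followed: Tnfrsf1a had 1.23, 1.86, 2.02, 2.24 and 0.97 (difference -1.27), and Tnfrsf1b, the inducible receptor, had 0.33, 0.21, 1.63, 2.60 and 1.59 (difference -1.0). Tnfrsf1a was thus below its 0 h level at 21 h, and Tnfrsf1b above it. Nfkbia, the inhibitor that holds NF-kappaB in the cytoplasm and is itself a target, had 0.64, 1.99, 1.43, 2.36 and 1.46, a difference of -0.91, short of 2-fold. Sod2, the mitochondrial superoxide dismutase, differed by 0.26 and Tnip2 by 0.28. These 2 were the only measured members of the list above 0. Genes named with less than 2-fold differences were picked after their values were seen, except for 14 measured genes of the LPS response named by rule.

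Cytokines and chemokines did not move as one. Csf1, which the macrophages themselves make and respond to, had log2 ratios of -0.25, 0.56, 3.64, 1.17 and 0.16. It was highest at 2 h and back near its 0 h level at 21 h, a difference of -1.01. Its one probe lies in a run that was high early, as do the probes of Il1a, Il1rn, Cxcl10 and Ccl9, and the part of these runs in the 0.5 h and 2 h values was not tested. Interleukin 1 alpha did not come down: Il1a had 0.12, 0.98, 3.72, 5.32 and 5.54, so its 2 highest values were at 7 h and 21 h, 0.22 apart. Il1rn, which encodes the receptor antagonist of interleukin 1, had -0.06, 0.73, 1.34, 2.94 and 2.58, a difference of -0.36. Of 8 cytokine genes 3 were higher and 5 lower (62.5%, against 47.1% of all genes), with a median of -0.41. Il1b, Tnf and Il6 were not analysed here. Among 16 chemokine genes the median was -0.11, and 2 were at least 2-fold lower, against 1.12% of all genes. Cxcl10, an interferon-induced attractant of T cells, had 0.39, 1.69, 4.19, 5.81 and 3.89, and differed by -1.92 (3.79-fold lower). Its ratio at 21 h remained far above that at 0 h. Ccl9, an attractant made by macrophages, had 1.87, 2.17, 3.78, 4.20 and 2.14, a difference of -2.06 (4.18-fold lower), which brought it close to its 0 h level. The other 14 chemokines lay between -0.47 (Ccl6) and 0.45 (Pf4).

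Further genes that the naming rule picks were lower at 21 h. Sdc4, a heparan sulphate proteoglycan of the cell surface, had 0.32, 0.77, 2.56, 2.79 and 0.68. Its difference was -2.10 ± 0.75 (SD over 2 probes), 4.30-fold lower. Gadd45b, a stress-inducible regulator of MAP kinase signalling, had 0.17, 1.28, 3.06, 2.86 and 1.31, a difference of -1.55 ± 0.12 (SD over 2 probes). Pim1, a cytokine-inducible survival kinase, had 0.54, 2.5, 3.63, 3.26 and 2.09. All 4 of its probes were lower, by -1.17 ± 0.19 (SD). Pim1 and Gadd45b were both still at least 2-fold above 0 h at 21 h. Plaur, the urokinase receptor, differed by -1.67, and Vcam1, an adhesion molecule for leukocytes, by -1.21. Sdc4, Plaur and Vcam1 were the 3 at least 2-fold lower in a list of 21 matrix, protease and adhesion genes, against 1.12% of all genes. In this list 9 were higher and 12 lower (57.1%, against 47.1% of all genes). Its median was -0.17, and -0.19 with only the affected probes left out. It was however 0.45 over the 11 genes with every probe outside the runs that were high early. Mmp9 was its only gene at least 2-fold higher, against 1.82% of all genes. Plek, the protein kinase C substrate pleckstrin, differed by -1.48 ± 0.51 (SD over 2 probes), and Prnp, the prion protein, by -1.37 ± 0.32 (SD over 3 probes). Slc28a2, a nucleoside carrier, had 1.59, 2.66, 3.34, 5.12 and 3.21, a difference of -1.90. Hcar2, the nicotinic acid receptor, had -0.13, -0.14, 0.29, 2.10 and -0.15, a difference of -2.24. It was high on the 7 h array alone. Efhb differed by -2.09, Cdk13, a kinase of transcription, by -1.98, and Sphk2, a sphingosine kinase, by -1.78. Septin11, a cytoskeletal GTPase, differed by -1.76, and Ino80, a chromatin remodeller, by -1.68. All probes of Gadd45b and Pim1, and the 1 probe each of Plaur, Slc28a2, Sphk2, Septin11 and Ino80, lie in runs that were high early.

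Receptors and adaptors of endotoxin signalling held 2 genes beyond 2-fold among 11, both lower, against 1.12% of all genes at least 2-fold lower. Ly86, the partner of the TLR4 relative RP105, had -0.64, -0.18, -0.25, 1.41 and 0.30 (difference -1.10). Ikbkg, the regulatory subunit of the IkappaB kinase, had -0.39, -0.49, -0.96, 0.45 and -0.62 (difference -1.06). The list's median was -0.28. Ptpn6, the phosphatase SHP-1, was the one feedback inhibitor at least 2-fold lower, with 2.05, 1.73, 2.89, 3.03 and 2.02 (difference -1.01). In that list of 19, 3 other members were at least 2-fold higher, against 1.82% of all genes. Tsc22d3, the glucocorticoid-inducible leucine zipper, had -0.18, -0.47, -0.79, -1.60 and 0.19 and differed by 1.79 ± 0.45 (SD over 2 probes). Nr4a1, a nuclear receptor that is also an immediate early gene, had 0.21, -0.17, -0.37, -0.32 and 0.92 (difference 1.25). Sirpa, the inhibitory receptor for CD47, had 0.31, 0.28, -0.69, -3.15 and 0.37 (difference 3.52, 11.5-fold). Tsc22d3 and Sirpa were lowest at 7 h and at 21 h were again near 0 h.

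Interferon-stimulated genes stayed high and were mostly slightly lower at 21 h. Of 34 measured, 28 (82.4%) were lower at 21 h than at 7 h, against 47.1% of all genes, with a median difference of -0.43. In median level the list moved from 1.14 at 0 h to 1.91 at 7 h and 1.83 at 21 h. Ifit1, which binds foreign RNA, had 1.76, 3.79, 6.30, 5.84 and 5.23 (difference -0.61 ± 0.19, SD over 2 probes). Irf7, the transcription factor that amplifies interferon production, had 2.33, 2.63, 3.68, 4.57 and 4.07 (difference -0.50 ± 0.25, SD over 2 probes). Rsad2, the antiviral protein viperin, had 2.26, 2.98, 5.68, 6.31 and 5.72 (difference -0.58 ± 0.50, SD over 2 probes), but with quantile normalization its difference was 0.39. All 3 remained well above 0 h at 21 h. Cxcl10 and Igtp were the members at least 2-fold lower, against 1.12% of all genes. Igtp, an interferon-inducible GTPase, had 1.48, 1.55, 2.72, 3.90 and 2.59, a difference of -1.31 ± 0.27 (SD over 2 probes). One went the other way by more than 2-fold. Ifit3, of the same family as Ifit1, had 1.53, 2.75, 2.68, 1.35 and 4.19, a difference of 2.83 (7.13-fold), from 1 probe. At 7 h its value was close to that at 0 h while Ifit1 and Ifit2 were high (Ifit2 differed by -0.68). Ifit genes are related in sequence, so the values of single members are uncertain where probes detect more than 1 of them.

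The 250 bases before the start of transcription (RefSeq, assembly GRCm38.p6, in the direction of the gene) are shown for 5 of the named genes, so that genes lower at 21 h can be set against genes higher at 21 h. Capitals mark matches to an NF-kappaB site or to the core of the interferon-stimulated response element (GAAA, any 2 bases, GAAA), on either strand. The promoters lie at chr5:92348890-92349139 (minus strand, Cxcl10), chr2:164443189-164443438 (minus, Sdc4), chr11:58199306-58199555 (plus, Igtp), chr19:34583279-34583528 (plus, Ifit3) and chr1:120505025-120505274 (minus, Marco).
Cxcl10: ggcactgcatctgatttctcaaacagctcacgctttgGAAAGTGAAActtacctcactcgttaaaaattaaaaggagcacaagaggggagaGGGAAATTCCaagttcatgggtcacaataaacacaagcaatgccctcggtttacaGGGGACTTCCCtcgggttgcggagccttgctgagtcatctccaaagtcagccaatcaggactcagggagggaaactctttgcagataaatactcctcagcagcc
Sdc4: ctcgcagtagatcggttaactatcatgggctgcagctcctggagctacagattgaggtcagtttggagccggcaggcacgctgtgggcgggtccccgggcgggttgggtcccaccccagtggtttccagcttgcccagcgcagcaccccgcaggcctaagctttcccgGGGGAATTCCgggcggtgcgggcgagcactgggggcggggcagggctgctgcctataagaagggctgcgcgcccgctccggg
Igtp: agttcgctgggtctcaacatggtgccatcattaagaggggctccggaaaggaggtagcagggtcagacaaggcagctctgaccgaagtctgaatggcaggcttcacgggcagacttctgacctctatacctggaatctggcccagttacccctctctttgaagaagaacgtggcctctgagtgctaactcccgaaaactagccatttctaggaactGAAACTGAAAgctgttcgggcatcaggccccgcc
Ifit3: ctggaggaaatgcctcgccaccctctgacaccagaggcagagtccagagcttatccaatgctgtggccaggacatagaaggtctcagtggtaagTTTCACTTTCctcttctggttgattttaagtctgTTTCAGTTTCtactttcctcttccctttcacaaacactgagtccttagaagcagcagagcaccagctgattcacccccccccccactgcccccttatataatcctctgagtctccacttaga
Marco: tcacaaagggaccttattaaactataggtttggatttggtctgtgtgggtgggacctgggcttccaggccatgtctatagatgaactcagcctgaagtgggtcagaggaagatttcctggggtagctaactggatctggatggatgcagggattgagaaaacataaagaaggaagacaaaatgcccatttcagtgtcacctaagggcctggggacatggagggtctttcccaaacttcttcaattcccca
In Cxcl10 an interferon core lay 213 to 204 bases before the start, and NF-kappaB matches lay at 159 to 150 and, overlapping each other, at 104 to 94. Sdc4 held 1 NF-kappaB match at 82 to 73, and Igtp 1 interferon core at 34 to 25. Ifit3, higher at 21 h, held 2 interferon cores on the opposite strand, at 156 to 147 and 122 to 113. In the Marco window neither motif was found. A match is a description of the letters and not a site shown to be bound.

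The same search was run over all measured genes with a promoter sequence. The interferon core was in 3.50% of 143 promoters of genes at least 2-fold higher, 5.66% of 106 promoters of genes at least 2-fold lower and 2.62% of all 8923 promoters. NF-kappaB sites were in 5.59%, 7.55% and 8.04%. The hypoxia response core ACGTG was in 19.6%, 22.6% and 20.6%, the AP-1 site TGANTCA in 7.69%, 10.4% and 5.28%, and the cyclic AMP site TGACGTCA in 2.10%, 0.943% and 2.45%. The E2F sites TTCGCGC or TTGGCGC were in 2.80%, 5.66% and 5.02%. TTTGAA was in 12.6%, 20.8% and 11.6%. Some genes have several promoters, and both strands were searched.

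Arginase, a scavenger receptor and enzymes of lipid and haem breakdown were highest at 21 h. Arg1, the cytosolic arginase that turns arginine into ornithine and urea, had log2 ratios of 0.05, 0.39, 0.61, -0.47 and 4.11. It stood near the array median through 7 h and was 23.9-fold higher at 21 h (difference 4.58), the largest of all genes. Its value rests on 1 probe, which lies in a run that was high early. Arg2, the mitochondrial arginase, differed by 0.04 and Slc7a2, an arginine carrier, by 0.37. Across 17 measured genes of arginine and polyamine metabolism the median was -0.04, and Arg1 was the only one beyond 2-fold. Marco, a scavenger receptor for bacteria, had -0.18, -0.71, -0.32, 0.85 and 3.78, a difference of 2.93 (7.62-fold). Pla2g7, the plasma hydrolase of platelet-activating factor, had 0.56, 0.78, 1.5, 2.46 and 4.18, a difference of 1.72 (3.30-fold). These 2 genes were the only ones of the 157 that were already at least 2-fold above 0 h at 7 h. Lpl, lipoprotein lipase, went the other way: its log2 ratios were 1.68, 1.87, 1.70, 1.74 and 0.20, and its 4 probes ranged from -2.48 to -0.52 (difference -1.54 ± 0.98, SD). In all, 14 of 24 scavenger and lipid genes (58.3%) were higher, near the 52.9% of all genes, with a median of 0.07.

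Among 37 antimicrobial and redox genes 22 were higher (59.5%, near the 52.9% of all genes), with a median of 0.12. Of these, 2, Hmox1 and Prdx1, were at least 2-fold higher, against 1.82% of all genes. Of 14 genes of iron and metal uptake 8 were higher (57.1%, near the 52.9% of all genes). Among them 1 was at least 2-fold higher, and 2 of the 14 were at least 2-fold lower, against 1.12% of all genes. Hmox1, haem oxygenase 1, had 2.09, 2.52, 1.23, 2.21 and 4.33, a difference of 2.12 (4.36-fold). Prdx1, a peroxiredoxin, had 1.23, 1.23, 0.98, 1.53 and 2.80, and all 9 of its probes were higher, by 0.39 to 1.96 (difference 1.27 ± 0.46, SD). The 9 probes share the same 2 arrays, 6 of them lie in runs that were high early, and their SD was above the pooled 0.40. Ferritin, the store of iron, was higher in both chains but short of 2-fold (Ftl1 0.81, Fth1 0.64), and Tfrc, the transferrin receptor that brings iron in, was lower, with 0.79, 1.06, 1.02, -0.07 and -1.30 (difference -1.24). Mt2, a metallothionein, had -1.0, -0.52, 0.03, 0.44 and -0.65 (difference -1.09). Nfe2l2, the transcription factor Nrf2, differed by -0.99. Mmp9, the gelatinase that cuts matrix, had -0.77, -0.45, -0.29, -0.56 and 1.09 (difference 1.65). Samsn1, an adaptor of haematopoietic cells, had 0.29, 0.33, 0.54, 0.08 and 2.21 (difference 2.13). Hmox1, Samsn1, Tfrc and Mt2 each rest on 1 probe in a run that was high early.

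Enzymes of glycolysis and hypoxia-inducible genes were modestly higher at 21 h. Of 30 measured, 22 (73.3%) were higher, against 52.9% of all genes, the median difference was 0.40, and the median level moved from -0.09 to 0.24. Tpi1, triosephosphate isomerase, had -0.41, -0.43, -0.86, -0.34 and 0.77. Its 5 probes differed by 1.03 to 1.19 (1.11 ± 0.06, SD), the tightest spread of the genes named here. All 5 lie in runs that were high early. Ero1a, a hypoxia-inducible oxidase of the endoplasmic reticulum, differed by 1.16. Other enzymes were short of 2-fold, among them Pfkl at 0.75, Aldoc at 0.71, Pgam1 at 0.54, Ldha at 0.43, Gapdh at 0.40 and Aldoa at 0.40. The glucose carrier Slc2a1 was at 0.07. Lower were 8 members, among them Vegfa at -0.46, Egln1 at -0.44, Pfkfb3 at -0.32, Pkm, pyruvate kinase, at -0.26, Slc16a1 at -0.25 and Hk2 at -0.20. Hif1a, the hypoxia-inducible factor itself, had 0.47, 0.94, 1.36, 2.01 and 2.42, and its 6 probes differed by 0.41 ± 0.28 (SD). Most of its separation from 0 h was therefore present at 7 h. In the TCA cycle and pentose phosphate list of 28 genes, Me2 (1.56) and Idh3g (1.06) were at least 2-fold higher (1.82% of all genes) and the median was 0.09. Me2 was lowest at 7 h, at least 2-fold below all 4 other arrays, from 1 probe in a run that was high early. The 72 genes of oxidative phosphorylation had none beyond 2-fold and a median of -0.04, which was 0.04 without centring.

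Of 18 complement, acute-phase and coagulation genes 13 (72.2%) were higher, against 52.9% of all genes, with a median of 0.13, which was 0.04 without the runs that were high early. Cfb, complement factor B, had -0.44, -0.40, 0.60, 3.10 and 3.78 (difference 0.69 ± 0.10, SD over 2 probes). Saa3, an acute-phase protein made by macrophages, had 0.16, 1.53, 2.61, 2.93 and 3.14 (difference 0.20). Both were above 0 h at 7 h and 21 h. Tfpi, the tissue factor pathway inhibitor, was the only member at least 2-fold higher (1.04), against 1.82% of all genes. Plaur, high at 7 h, was the only member at least 2-fold lower, against 1.12% of all genes. Ptgs2, the inducible cyclooxygenase, had values between -0.68 and -0.05 on all 5 arrays and differed by -0.37. These values rest on 1 probe.

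**Figure D2:**
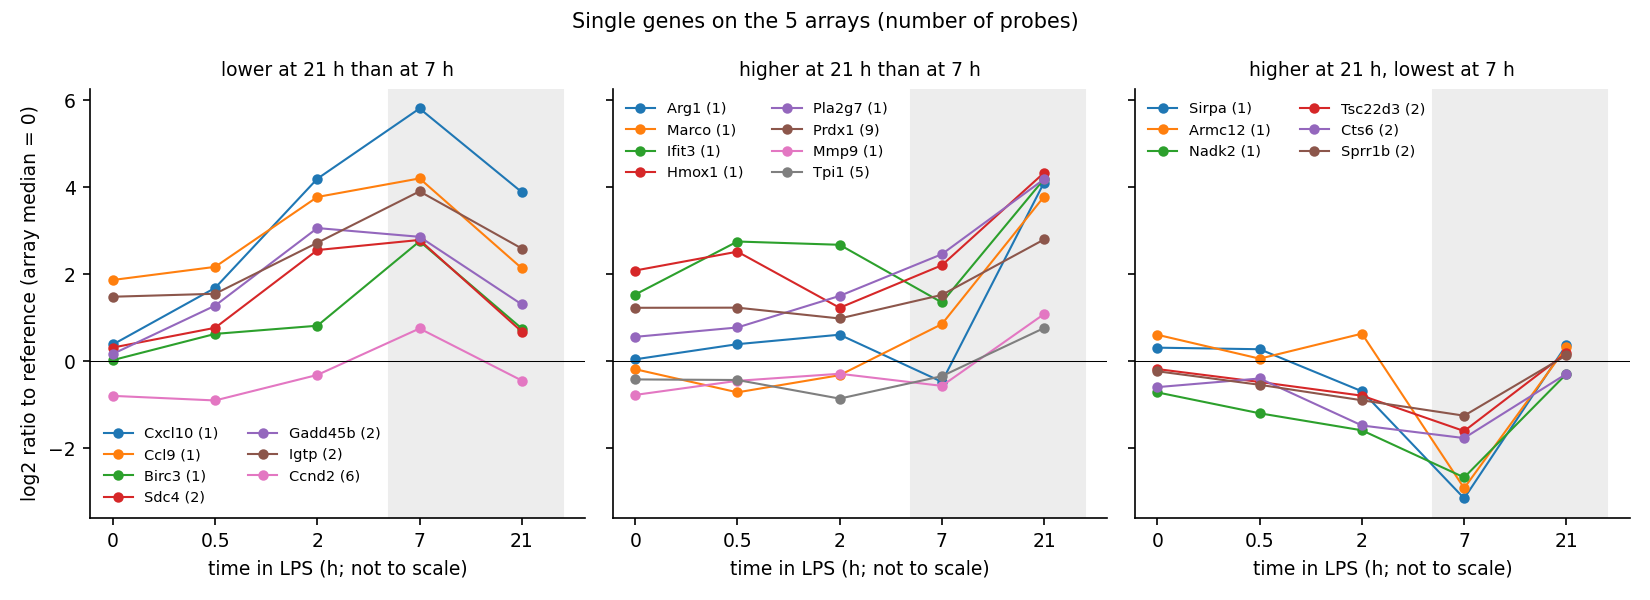
Log2 ratio to the reference (array median 0) of single genes on the 5 arrays in order of time, with the number of probes per gene in brackets and the 7 h and 21 h arrays shaded. The left panel shows genes lower at 21 h, such as Cxcl10 at 5.81 and then 3.89; the middle one genes higher at 21 h, such as Arg1 at -0.47 and then 4.11; the right one genes lowest at 7 h, such as Sirpa at -3.15 and then 0.37.

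The 0 h array, which the comparison does not use, separates genes that started late from genes that were low at 7 h. These counts share the 7 h and 21 h arrays with the comparison and describe its genes, by a rule made after the data were seen. The same patterns were not counted over all 8637 genes. By the choice itself, genes higher at 21 h tend to be low at 7 h or high at 21 h, and lower genes the reverse. Of the 157 higher genes, 32 (20.4%) were within 2-fold of 0 h at 7 h and at least 2-fold above it at 21 h. In 21, the 21 h value was at least 2-fold above all 4 other arrays. Arg1, Marco, Hmox1, Ifit3, Pla2g7, Mmp9, Samsn1, Prdx1 and Tpi1 were among the 21, as were Sort1, Gys1, Clec4b1 and Nr2f6. By contrast, 77 (49.0%) were at least 2-fold below 0 h at 7 h, and 72 of these were within 2-fold of 0 h at 21 h. In 36 genes, all but 1 with a single probe, the 7 h array was at least 2-fold below all 4 others. Armc12 had 0.61, 0.06, 0.64, -2.91 and 0.32 (difference 3.23), and Nadk2, a mitochondrial NAD kinase, had -0.71, -1.19, -1.58, -2.67 and -0.29 (difference 2.38). Mtus2 had 0.05, -0.13, 1.14, -1.81 and 0.57 (difference 2.38). Each of these was lowest at 7 h and rests on 1 probe, which for Mtus2 lies in a run that was high early. Treh, the trehalose-splitting enzyme, had 0.26, 2.60, 3.14, -2.18 and 0.21 (difference 2.39), and D630024D03Rik had 1.54, 1.30, 3.27, 0.06 and 2.93 (difference 2.86). Their probes lie in such runs too. Ablim1, an actin-binding protein, had -1.73, -3.17, -4.53, -3.73 and -1.78 (difference 1.95), so it was low at 0.5 h and 2 h as well.

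Of the 97 lower genes, 51 (52.6%) were at least 2-fold above 0 h at 7 h. Of these, 43 were within 2-fold of 0 h at 21 h and 8 were still at least 2-fold above it: Cxcl10, Gadd45b, Igtp, Pim1, Slc28a2, Tnfrsf1b, Ankrd54 and Tedc2. In 17 genes the 7 h array was at least 2-fold above all 4 others, among them Birc3, Cxcl10, Igtp, Hcar2, Ly86 and Ccnd2. In 13 the 21 h array was at least 2-fold below all 4 others, among them Lpl, Ngp, Mpo, Tfrc, Tk1 and Ube2c. A further 13 counted by another rule, within 2-fold of 0 h at 7 h and at least 2-fold below it at 21 h, overlap with these.

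Genes were also chosen on the 0 h and 2 h arrays alone. Outside the runs that were high early, 185 genes had reached 2-fold above 0 h by 2 h. Against 0 h, their median was 0.19 at 7 h and 0.17 at 21 h. From 7 h to 21 h their median difference was -0.04 (interquartile range -0.39 to 0.30). Of the 185, 96 were below 0 (51.9%, against 47.8% of the 4266 genes outside these runs), 8 were at least 2-fold lower (4.32%, against 0.844%) and 6 at least 2-fold higher (3.24%, against 1.83%). The 67 genes at least 2-fold lower at 2 h than at 0 h were mostly higher at 21 h. Their median difference was 0.47 (interquartile range 0.05 to 0.83). Of the 67, 50 (74.6%) were higher at 21 h than at 7 h, against 52.2% of the 4266 genes. At least 2-fold higher were 16 (23.9%, against 1.83%). None of the 67 was at least 2-fold lower, against 0.844% of the 4266. Their median against 0 h was -0.87 at 7 h and -0.36 at 21 h. Neither the 7 h nor the 21 h array took part in this choice. The 0 h array did, so medians against 0 h partly reflect the choice itself. They do not show whether an early change had ended.

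**Figure D3:**
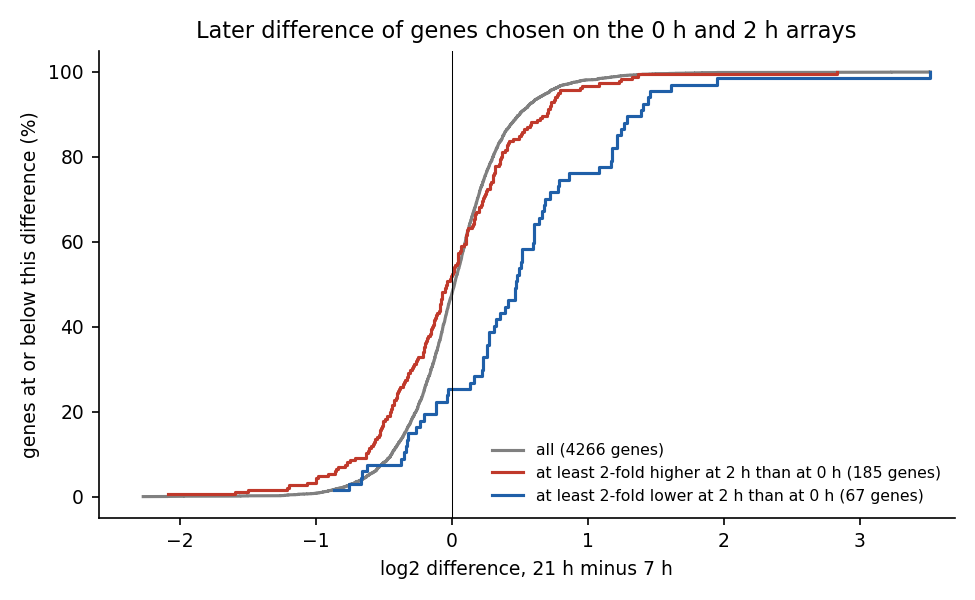
Cumulative share of genes (vertical, %) by log2 difference, 21 h minus 7 h (horizontal), for genes with all probes outside the runs that were high early. Grey is all 4266 genes (median 0.02), red the 185 at least 2-fold higher at 2 h than at 0 h (median -0.04) and blue the 67 at least 2-fold lower (median 0.47), whose curve lies to the right.

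Genes of mitosis were lower at 21 h, while those of DNA replication were spread around 0. Of 51 mitotic and G2/M genes 37 (72.5%) were lower, against 47.1% of all genes, and the median level went from 0.44 at 0 h to 0.03 at 7 h and -0.29 at 21 h. The median difference was -0.20. Ube2c, a ubiquitin-conjugating enzyme of mitotic exit, had 0.50, 0.72, 0.66, -0.16 and -1.52 (difference -1.37). Cdk1, the kinase of mitotic entry, had -0.75, -0.19, -0.13, -0.07 and -1.09 (difference -1.02). Mki67, the proliferation antigen Ki-67, differed by -0.97. Ccnb2, a B-type cyclin, averaged -1.07 ± 1.51 (SD over 2 probes), but its probes were at -2.14 and -0.0021, so the gene's value rests on 1 probe. In the DNA replication list 28 of 49 were lower (57.1%, against 47.1% of all genes), with a median of -0.04. Tk1, thymidine kinase, was the only gene beyond 2-fold, against 1.12% of all genes at least 2-fold lower. It had 0.89, 0.96, 0.47, -0.13 and -1.13 (difference -1.01). Ckap2l, a spindle protein, differed by -1.17 ± 0.40 (SD over 2 probes).

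The D-type cyclins, which carry growth factor signals to the cell cycle, differed from one another. Ccnd1 had 1.53, 1.99, 0.95, -0.77 and -0.53. Its difference was 0.24 ± 0.33 (SD over 3 probes), within the spread of its probes, and both late values were below 0 h. Ccnd2 had -0.79, -0.90, -0.31, 0.75 and -0.44. It was high at 7 h alone, and all 6 of its probes were lower at 21 h, by -1.59 to -0.74 (difference -1.20 ± 0.38, SD). Ccnd3 differed by 0.29 and Myc by -0.75.

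Genes of protein synthesis were slightly lower as a group. Of 67 cytosolic ribosomal protein genes 61 (91.0%) were lower, against 47.1% of all genes. None was at least 2-fold lower, and the median difference was -0.29 (level -0.53 at 7 h and -0.78 at 21 h). The members ranged from -0.95 (Rpl3) to 0.43 (Rpl23a). Probes of this family may share sequence with its many processed pseudogenes, so its single values are uncertain. Eef1a1, the elongation factor that delivers aminoacyl-tRNA, had -0.57, -0.45, -0.68, -0.29 and -1.56. Its 5 probes were all lower, by -1.87 to -1.03 (difference -1.27 ± 0.35, SD). It too has many near-identical copies. Of 36 translation factors 25 (69.4%) were lower, with a median of -0.24 (-0.12 without the runs that were high early), against 47.1% of all genes lower. Eif2s3x (1.24) was the only translation factor at least 2-fold higher, against 1.82% of all genes. It was lowest at 7 h and came from 1 probe in a run that was high early.

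Chaperones, the proteasome and splicing factors had medians of similar size. Among 30 heat shock and chaperone genes 24 (80.0%) were lower, with a median of -0.23. This and the next shares stand against 47.1% of all genes. Hspa8, the constitutive Hsp70, had 0.79, 0.90, 0.10, 1.40 and 0.20 (difference -1.20), and Cct5, a subunit of the cytosolic chaperonin, differed by -1.05 ± 0.39 (SD over 2 probes). Of 31 proteasome subunits 23 (74.2%) were lower (median -0.22), of 56 splicing genes 41 (73.2%, median -0.17) and of 40 genes of the cytoskeleton 29 (72.5%, median -0.24). No gene of the last 3 lists was beyond 2-fold. For the 35 genes of the unfolded protein response the median was -0.07.

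Most class I antigen presentation genes were lower at 21 h. Of 14 class I and processing genes 11 (78.6%) were lower, against 47.1% of all genes. The list had a median difference of -0.30, which was -0.12 without the runs that were high early and -0.14 over genes with several probes, and a median level of 1.40 at 0 h, 2.37 at 7 h and 1.5 at 21 h. Psmb10, an interferon-inducible subunit of the immunoproteasome, had 1.49, 1.89, 2.46, 2.76 and 1.58 (difference -1.18), back near its 0 h level. Its partners Psmb8 and Psmb9 differed by -0.85 and -0.53, Tap2, a subunit of the peptide transporter, by -0.86, and B2m, the light chain of class I, by -0.01. Among 8 class II genes the median was 0.25, which was -0.02 without the runs that were high early, and no member was beyond 2-fold.

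Lysosomal genes held 2 cathepsins that were higher. Ctsk, a cysteine protease, had -0.75, -1.03, -1.34, -1.88 and -0.75 (difference 1.13), and Ctsh had 0.51, 0.75, -0.01, 0.29 and 1.30 (difference 1.01). Cln3, a lysosomal membrane protein, differed by -1.02. Of the 49 genes 31 were higher (63.3%, against 52.9% of all genes), with a median of 0.12, and the 2 at least 2-fold higher stand against 1.82% of all genes. In sterol and fatty acid synthesis Fdps, farnesyl diphosphate synthase, differed by -1.26 and Acss2, an acetyl-CoA synthetase, by 1.06, around a median of 0.03 over 23 genes. In the MAP kinase cascade (24 genes, median 0.06) Map3k4 (1.36) and Dusp19 (1.19) were at least 2-fold higher, against 1.82% of all genes. Both were lowest at 7 h, at least 2-fold below all 4 other arrays, each from 1 probe in a run that was high early. The AP-1 and immediate early list (28 genes) had a median of -0.09, with Fos at 0.14 and Jun at -0.16. Pim1, lower, and Nr4a1, higher, were its only genes beyond 2-fold, against 1.12% and 1.82% of all genes.

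**Figure D4:**
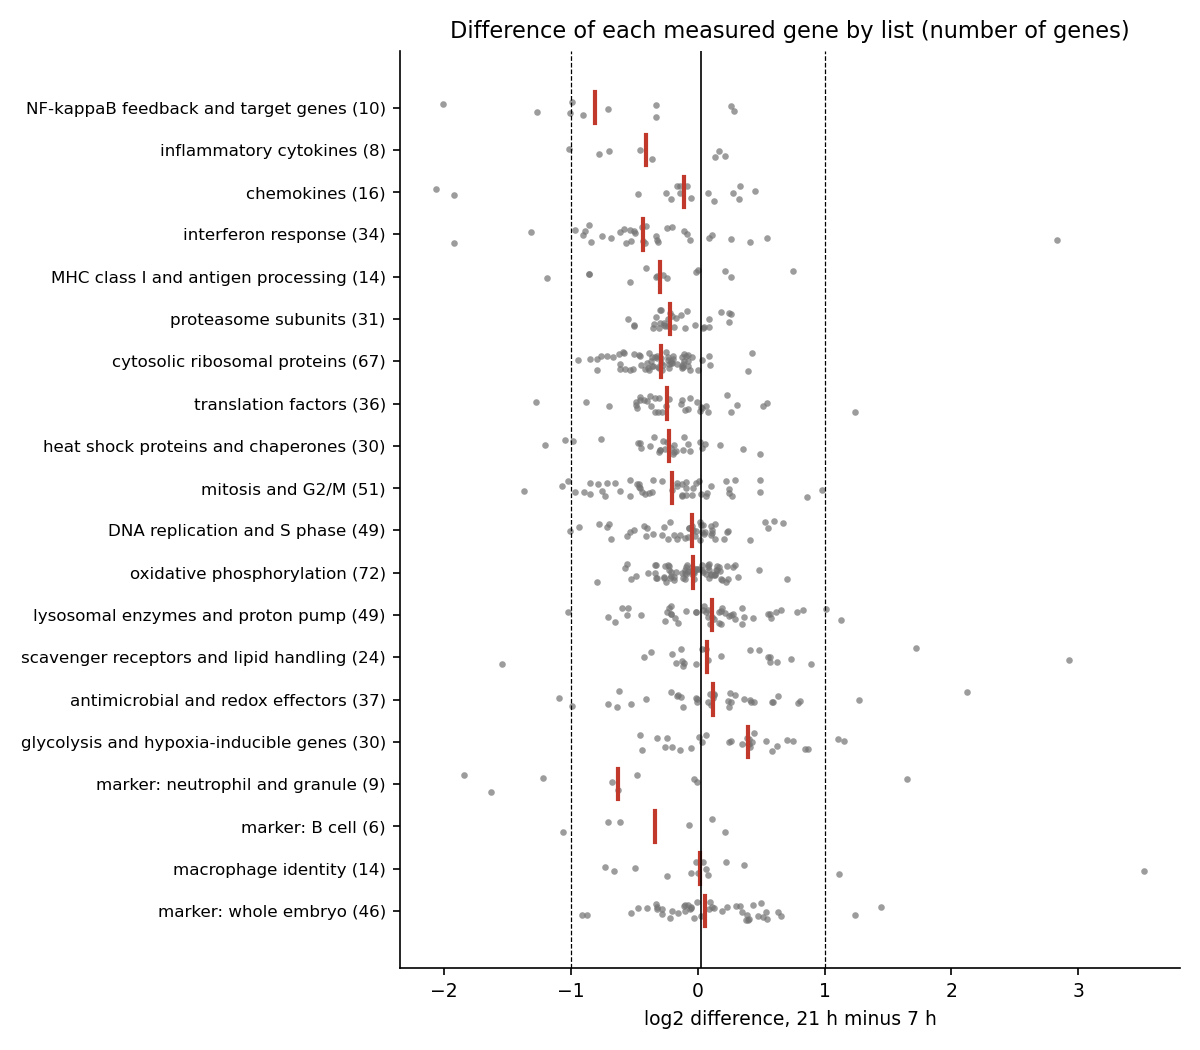
Log2 difference, 21 h minus 7 h, of each measured gene (grey points, spread vertically at random) in the lists named on the left with the number of genes; red bars are medians, the solid line is the median of all genes (0.02) and the dashed lines are 2-fold. The NF-kappaB list sits furthest to the left of the functional lists (median -0.81) and the glycolysis list to the right (median 0.40).

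Among the marker lists of other cell types, the neutrophil list had the largest median difference between the arrays. Of 9 measured neutrophil and granule genes 8 (88.9%) were lower at 21 h, against 47.1% of all genes, with a median difference of -0.63. Their median level was 0.22 at 0 h, 0.21 at 7 h and -0.42 at 21 h (range -3.58 to 1.56 at 7 h and -3.61 to 1.09 at 21 h). Ngp, a neutrophil granule protein, had 1.14, 1.54, 1.73, 1.36 and -0.48 (difference -1.84 ± 0.48, SD over 2 probes). Mpo, myeloperoxidase, had 0.22, 0.65, 0.32, 0.18 and -1.03 (difference -1.22), and Fcnb, a ficolin of bone marrow myeloid cells, had -0.46, -0.22, 0.72, 1.20 and -0.43 (difference -1.63). Ngp and Mpo were lowest at 21 h. Mmp9 is on this list too and was the one gene above 0, so its higher value did not go with the granule genes. The part of granulocyte markers in the lower values of other genes was not tested, and fewer cells of a type and less RNA per cell cannot be told apart in these bulk samples. For 6 B cell genes the median was -0.34, with Ebf1 at -1.06 ± 0.20 (SD over 2 probes). T and NK cell (7 genes), dendritic cell (4) and erythroid (13) lists had medians of -0.00, 0.19 and 0.09. In the erythroid list Klf1 was at -1.02. Mast cell genes (5) had a median of 0.38, with Mcpt4 at 1.68, which was lowest at 7 h and came from 1 probe in a run that was high early. Stromal genes (18) were at 0.10, with Fstl1 at 1.45, and embryo genes (46) at 0.05, with Myh3 at 1.44 and Gap43 at 1.24. The 14 macrophage genes were at 0.02. Of these, Sirpa and Clec4n (1.11), a C-type lectin, were at least 2-fold higher, against 1.82% of all genes. Clec4n rests on 1 probe in a run that was high early.

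Genes with several probes were also sorted by the agreement of their probes, which is read from the same arrays as the difference. Some of them had a spread over probes above the pooled SD of 0.40. In 36 genes every one of 2 or more probes was at least 1.5-fold higher at 21 h, and in 44 every one was at least 1.5-fold lower. On average 7 and 16 of these were at least 2-fold apart. Tsc22d3 led the higher ones (1.79), followed by Cts6, a cathepsin (1.48 ± 0.46, SD over 2 probes), and Sprr1b, a cornified envelope protein (1.39 ± 0.25, SD over 2 probes). Both had negative ratios at 7 h (-1.76 and -1.25). Mab21l4 differed by 1.30 ± 0.81 (SD over 2 probes), with values of 3.59 and 3.55 at 0.5 h and 2 h. 1700028B04Rik differed by 1.15 ± 0.69 (SD over 2 probes). Pdgfd, a growth factor, Sln, a regulator of the calcium pump, Scg3, a granin, Mtss1, an actin regulator, Ctsj, a cathepsin, and Cipc, a clock protein, completed the 12 highest, with differences from 0.93 to 1.0. Sdc4 led the lower ones (-2.10), followed by Ngp, Gadd45b and Plek. Ifrg15 differed by -1.40 ± 0.74 (SD over 2 probes) and Ythdf1, a reader of methylated RNA, by -1.29 ± 0.61 (SD over 2 probes). Probes in the runs that were high early were more often beyond 2-fold here as well: 2.65% of them reached 2-fold upwards and 2.46% downwards, and of the other probes 2.14% and 1.46%.

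**Figure D5:**
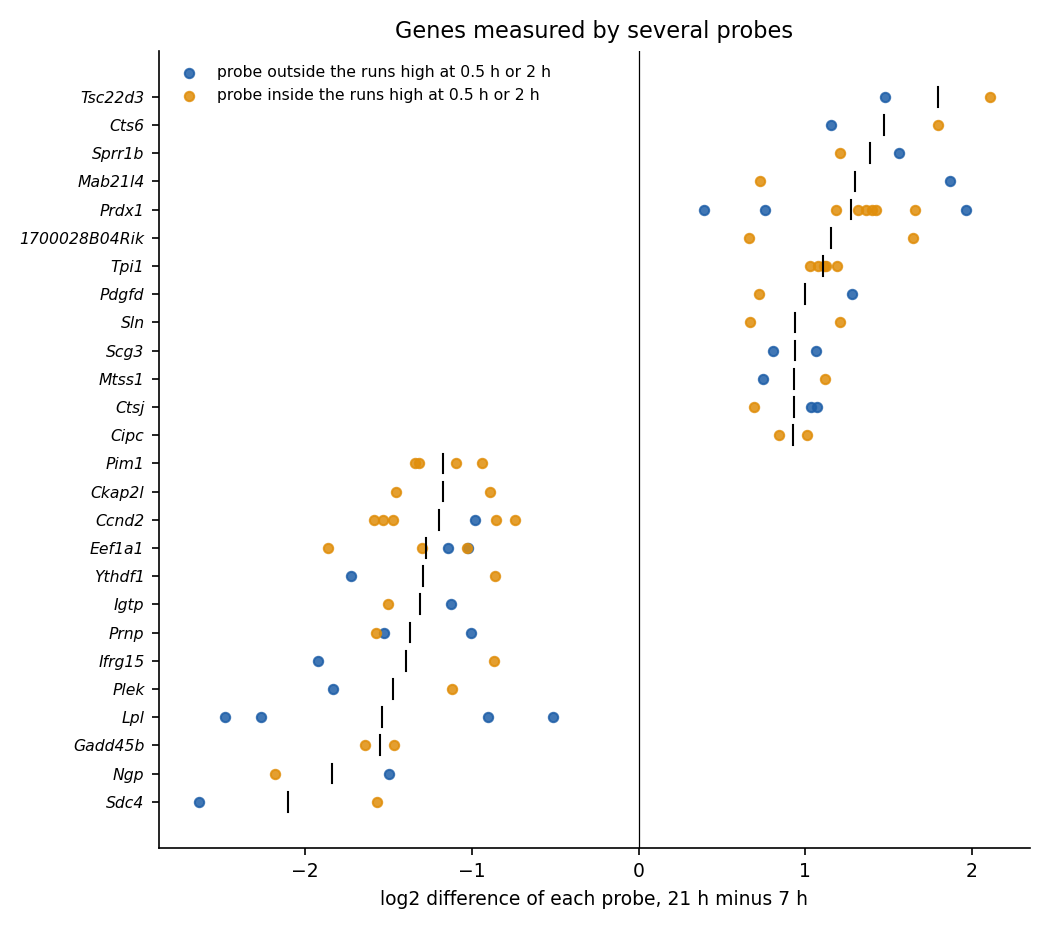
Log2 difference, 21 h minus 7 h, of each probe (points) of genes measured by several probes, with the gene's mean as a black bar; orange probes lie in the runs that were high at 0.5 h or 2 h and blue ones outside. The 5 probes of Tpi1 lie together between 1.03 and 1.19, the 6 of Ccnd2 are all below 0, and the 4 of Lpl lie far apart.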

How the data were processed

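RNA of LPS-treated macrophages was hybridised against embryo RNA on two-colour cDNA arrays, 1 per time. Per probe, the authors deposited a log ratio, taken to be log10; how it was normalized is not given in the sources used. Multiplication by 3.32 gave log2 values, from which the array's median over 18296 probes measured on all 5 arrays was subtracted. The 13782 of these with 1 gene symbol in the platform annotation of 2008 were averaged per symbol, after 14628 of 14759 one-symbol probes had been matched by Entrez identifier to RefSeq (GRCm38.p6). A further 170 probes had several symbols and 4899 none.

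No test was made. The steps were tested on simulated data. Genes named are the 12 highest and 12 lowest with 2 or more probes all differing 1.5-fold the same way, the 12 highest and lowest with 1 probe, up to 6 members per direction beyond 2-fold of each list described, and 18 genes of the LPS response, 14 of them measured. The 41 gene lists and the comparison were chosen with earlier results of these data known. Runs of 96 probe numbers, 92 of 207, were marked where at 0.5 h or 2 h at least 10% of probes exceeded 0 h by 2-fold. Alternatives were other centring, quantile normalization, other filters and folds, and base 2. Python 3.11.15, numpy 2.4.6, pandas 2.3.3 and matplotlib 3.10.9 were used. Of the genes the rule picks, 1 is not reported here.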

Additional observations from a re-analysis of the deposited data

How the results depend on the processing

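Against 157 genes at least 2-fold higher and 97 at least 2-fold lower, the counts were 13 and 21 with genes of several probes alone, 2 and 0 with the deposited values read as log2, 662 and 510 at 1.5-fold, and 32 and 18 at 3-fold. With quantile normalization 230 were higher and 185 lower, and without the runs that were high early 110 were higher and 59 lower, of 6014 genes. Counting only genes whose several probes all differed by 1.5-fold, an alternative chosen after seeing the data, gave 7 and 16. The share of higher genes among those beyond 2-fold was 61.8%, and 72.6% without centring (193 and 73). The NF-kappaB list's median was -0.33 over its 3 genes with several probes and -0.24 with values read as log2, where the neutrophil list's median was -0.19. The signs of the medians of the replication, class II, TCA, arginine, macrophage, T and NK cell, erythroid, stromal, embryo, oxidative phosphorylation, sterol and unfolded protein lists turned under at least 1 alternative. Ccnb2 was at -0.0021 without the affected runs. Of the 101 genes picked for naming, 29 moved by more than the pooled SD over probes with quantile normalization, 94 with values read as log2, 2 with probes measured on the 7 h and 21 h arrays, and 5 of 57 without the affected runs. Other list medians that moved by over 1.5 times without the affected runs were endotoxin recognition (-0.28 to -0.44), chemokines (-0.11 to -0.05) and apoptosis (-0.21 to -0.14). So did B cell markers (-0.34 to -0.61), scavenger and lipid genes (0.07 to 0.03) and the MAP kinase cascade (0.06 to 0.03). With genes of several probes alone, mitosis moved from -0.20 to -0.42, antimicrobial genes from 0.12 to 0.24, the matrix list from -0.17 to -0.32 and complement to 0.02. Cytokines moved from -0.41 to -0.26 with probes measured on the 7 h and 21 h arrays, and centring within runs moved feedback inhibitors from 0.27 to 0.17, the proteasome from -0.22 to -0.14 and mast cell markers from 0.38 to 0.23. Omitting the centring added 0.07 to every difference, and quantile normalization moved lysosomal genes from 0.12 to 0.22. No paired analysis was possible because each time has 1 array, and no replicate could be left out. Nothing in the files gives signal over background, so dim probes could not be removed.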

Other observations

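Probes without a gene name were measured on all 5 arrays in 4360 cases. Of these, 112 (2.57%) were at least 2-fold higher at 21 h than at 7 h and 111 (2.55%) at least 2-fold lower, against 1.82% and 1.12% of named genes, which are in part averages over probes. Of named genes with a single probe, 2.56% were at least 2-fold higher and 1.35% at least 2-fold lower.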
